A study of Arabidopsis thaliana with 24 samples.

Results

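The quantity described here is the change of the DCA response with time in wild-type Arabidopsis thaliana: the log2 difference between DCA-treated and mock-treated plants at 6 d, minus the same difference at 48 h. A negative value means that DCA-treated plants stood lower against their mock controls at 6 d than at 48 h. It rests on 12 of the 24 ATH1 arrays of the series, chosen by their titles with no measured value used, 3 independent plant samples in each of 4 groups. All 4 groups were accession Col-0, grown on soil and sprayed at an age of 2 weeks, and the whole aerial tissue was taken. The groups were Col-0_DCA_48h and Col-0_DCA_6d, given 100 µM 3,5-dichloroanthranilic acid (DCA), and Col-0_MOCK_48h and Col-0_MOCK_6d, given water with 0.002% DMSO, the solvent of the elicitors, present in the DCA solution at no higher level. Plants harvested at 6 d were older than those harvested at 48 h, and each time had mock plants of its own. The other 12 arrays hold Col-0 plants given 100 µM 2,6-dichloroisonicotinic acid (INA) at 48 h and 6 d, and the mutant npr1-3 given DCA or mock at 48 h.

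DCA and INA are synthetic elicitors: small molecules that switch on plant defence without a pathogen. They are functional analogues of the hormone salicylic acid (SA), which accumulates after infection and acts largely through the transcriptional co-activator NPR1. Defence of this kind draws on intracellular NLR receptors, which detect pathogen molecules, on receptor-like kinases at the cell surface, on calcium signalling and on SA-responsive genes that amplify or restrain the response. Keeping such genes on is costly to growth, so how long an elicitor's effect lasts is a question of its own, and the comparison of both harvest times addresses it.

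The deposited signal had the same trimmed mean, 500.1, on all arrays, and the median signal of the 12 arrays lay between 121.9 and 141.0. Of leaf transcripts, LHCB4.1, a light-harvesting protein, gave 29100 to 39700, and RCA, the activator of Rubisco, 20700 to 33200. CLV3, a stem-cell marker of the shoot apex, gave 3.08 to 10.6, and the guard-cell regulator FMA 102 to 201. Of the root markers, EXPA7 gave 8.89 to 79.8, while PYK10, a β-glucosidase of roots and young seedlings, gave 2550 to 5420. Replicate 1 of DCA at 6 d stood apart: it differed by more than 2-fold from replicates 2 and 3 in 15.6% and 13.8% of tested probe sets, against 1.76% between those 2. Mock plants at 48 h were also uneven, with 19.0% of probe sets more than 2-fold apart between replicates 1 and 2. The other pairs of the 12 arrays differed that much in 0.901% to 7.87%. Changes of named genes and list medians that moved by over 1.5 times, or changed sign, without 1 array are given with that value or with the range over single arrays left out.

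Of 13648 probe sets tested with limma, 3 changed their DCA response between 48 h and 6 d at an adjusted p under 0.05 (0.022%), and all 3 were lower at 6 d. Only 1 has a gene in the annotation used here, AT4G11000, which encodes an ankyrin-repeat protein. At an unadjusted p under 0.05 there were 1675, with 838 higher and 837 lower. At least 2-fold in size, without regard to the test, were 808 higher (5.92%) and 923 lower (6.76%). The median change over all tested probe sets was -0.07, and 54.6% of them were negative. The 95% interval of a single probe set reached, in the median, 0.83 on the log2 scale to either side, a factor of 1.78. A change smaller than that lay within the error of most probe sets. This error was pooled over all arrays of the series, including the INA and mutant groups, which are no part of this change. Replicate pairs of INA plants differed by more than 2-fold in 2.42% to 20.4% of probe sets. With only the arrays of this change fitted, 36 probe sets were called, 1 higher and 35 lower. In the fit of all arrays the count was 39 without replicate 2 of mock at 48 h, with 8 higher and 31 lower. It was 1 without replicate 2 of DCA at 6 d, without replicate 1 or 2 of mock at 6 d, or without replicate 1 of DCA at 48 h.

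The responses from which this difference is formed were unequal. At 48 h, 329 probe sets were called between DCA and mock (2.41%), 270 of them higher with DCA (1.98%) and 59 lower (0.432%). At 6 d limma called 0 (0%), with 444 at an unadjusted p under 0.05 and a lowest adjusted p of 0.701. Fitted on the mock and DCA arrays of 6 d alone, it also called 0, with 754 at an unadjusted p under 0.05. A call at 48 h and none at 6 d does not by itself show a change with time, and 3 of the 329 passed the test of the change. The count at 48 h was sensitive to single arrays: it was 715 without replicate 2 of mock at 48 h, 146 without replicate 1 and 117 without replicate 3 of that group, and 114, 107 and 147 without replicates 1, 2 and 3 of DCA at 48 h.

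**Figure D1:**
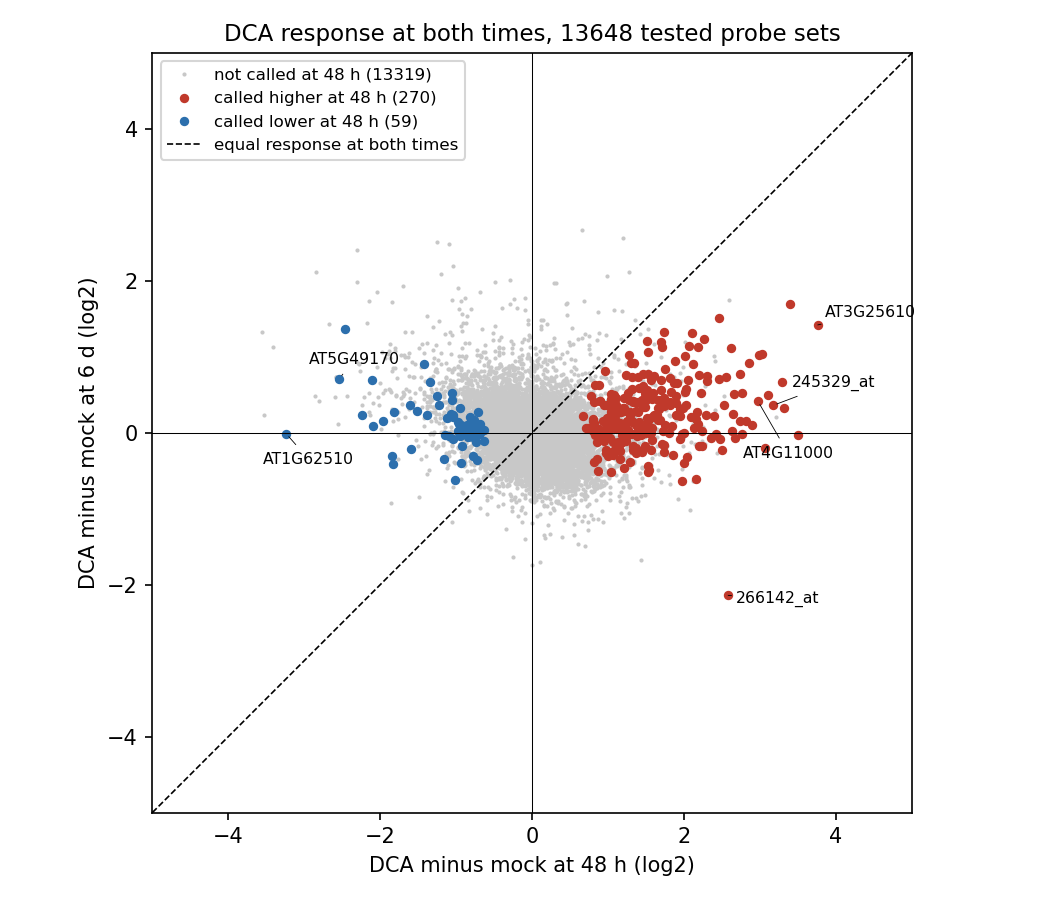
DCA minus mock at 48 h (horizontal axis, log2) against DCA minus mock at 6 d (vertical axis, log2), 1 point per tested probe set, with the 270 called higher at 48 h in red and the 59 called lower in blue. Distance below the dashed line is a negative change with time. The red points lie between the dashed line and the horizontal axis or below that axis, with a median of 1.47 at 48 h and 0.21 at 6 d, and 266142_at stands alone at the lower right.

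The largest called change was that of 266142_at, a probe set with no gene entry and therefore unnamed here. Its signals in mock plants at 48 h were 108, 73.1 and 149, and in DCA plants 623, 637 and 635. At 6 d mock plants gave 689, 697 and 526, and DCA plants 397, 94.4 and 79.5. The groups did not overlap at either time, and their order turned over: DCA stood 5.98-fold above mock at 48 h (log2 2.58 ± 0.42, SE, n = 3 against 3) and 4.39-fold below it at 6 d (log2 -2.14). The change of the response was -4.72 ± 0.59 on the log2 scale, with an adjusted p of 0.00146 from limma. Mock plants themselves rose between 48 h and 6 d by 2.58 (adjusted p = 0.0171) while DCA plants fell by 2.14 (adjusted p = 0.0195). Within DCA plants at 6 d, replicate 1 lay above replicates 2 and 3, and all 3 lay below every mock array of that time. The call held without any single array, with changes between -5.45 and -4.29.

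AT4G11000 belongs to the ankyrin-repeat proteins, a family with several members in SA-linked defence. It gave 29.2, 25.5 and 30.1 in mock plants at 48 h and 239, 217 and 208 in DCA plants. At 6 d it gave 91.5, 96.5 and 75.9 in mock plants and 132, 101 and 120 in DCA plants. DCA plants lay above mock plants without overlap at both times, and the fitted response was log2 2.97 ± 0.27 at 48 h and 0.42, or 1.34-fold, at 6 d. All 3 mock signals at 48 h lay below 74.2, the level of the filter on mean signal, and within the range of the root marker EXPA7 in these arrays. Against that level DCA plants at 48 h were at least 2.98-fold higher. The fitted change was -2.55 ± 0.38, with an adjusted p of 0.0114 from limma, and -1.15 with the mock plants at 48 h set to that level. Mock plants rose by 1.63 (adjusted p = 0.0171), while the difference between DCA plants at 6 d and at 48 h, -0.92, was not called (adjusted p = 0.102). The adjusted p reached 0.0659 when single arrays were left out: the call was lost without replicate 1 of DCA at 48 h, replicate 2 of DCA at 6 d, or replicate 1 or 2 of mock at 6 d.

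The third called probe set, 245329_at, is also without a gene entry. Mock plants at 48 h gave 438, 631 and 404, and DCA plants 4111, 4425 and 4523. Mock plants at 6 d gave 1174, 1217 and 1081, and DCA plants 1838, 1540 and 1160. The groups were far apart at 48 h, 9.03-fold, and overlapped at 6 d, where the difference was 1.29-fold. The change was -2.81 ± 0.48 with an adjusted p of 0.0456, and DCA plants fell by 1.55 with time (adjusted p = 0.0341). The call was lost without any single array other than replicate 2 of mock at 48 h, with an adjusted p of up to 0.173.

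**Figure D2:**
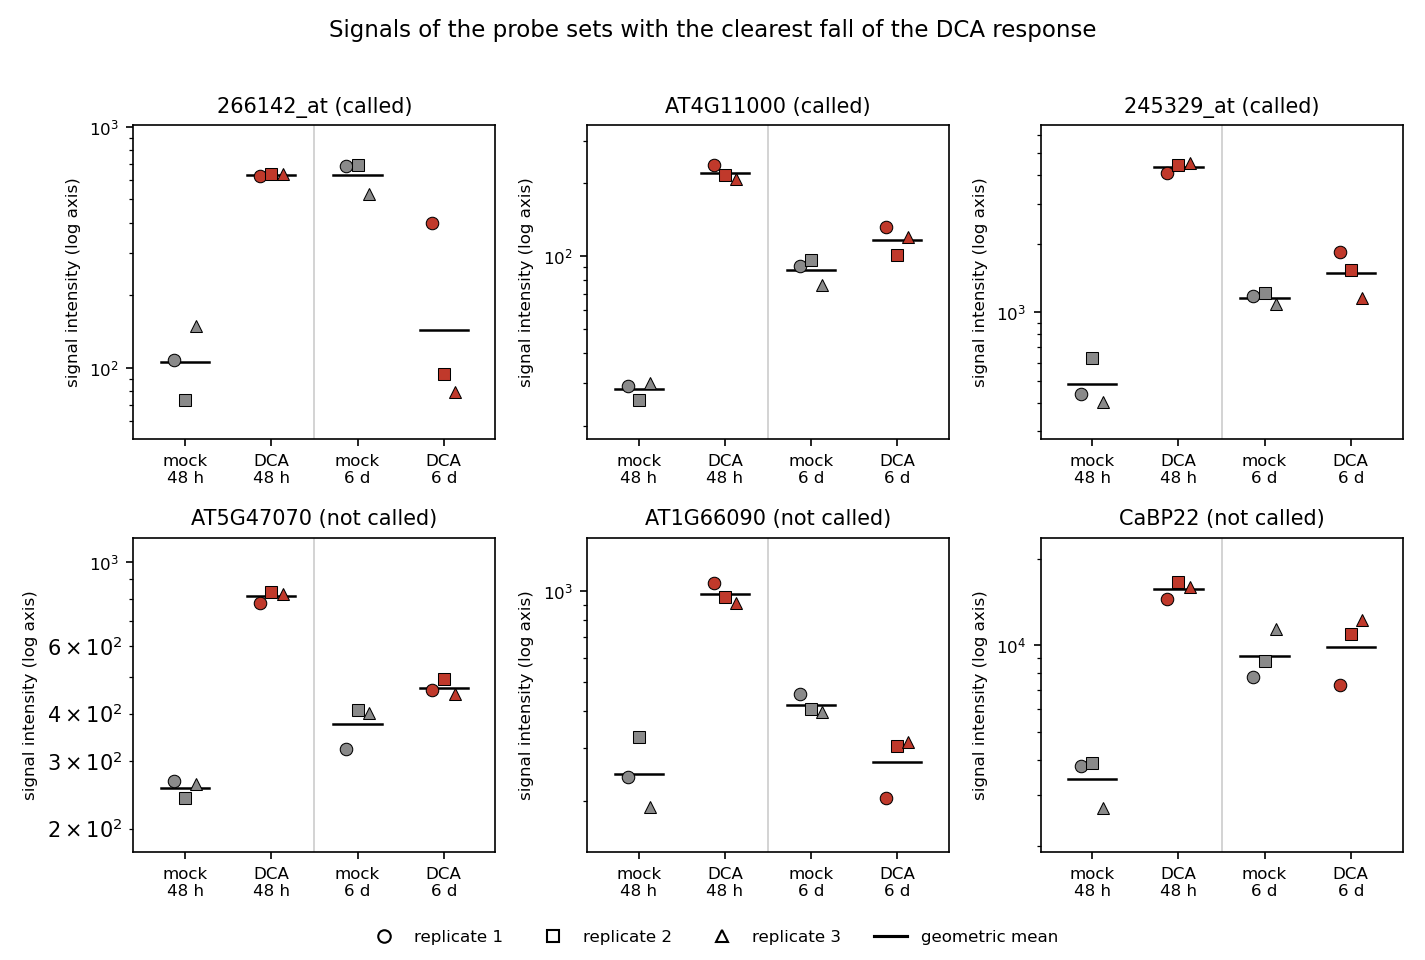
Signal intensity (logarithmic vertical axes that do not start at 0) in each of the 12 arrays for the 3 called probe sets and 3 genes just outside the threshold; symbols mark the replicate number, grey is mock, red is DCA, and bars are geometric means. In every panel DCA lies above mock at 48 h without overlap; at 6 d DCA is below mock for 266142_at and AT1G66090, and the groups overlap for 245329_at and CaBP22.

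Just outside the threshold lay 2 genes of immune signalling. AT5G47070 encodes a receptor-like cytoplasmic kinase, a class that relays signals from surface receptors. It gave 266, 240 and 262 in mock and 779, 835 and 825 in DCA plants at 48 h, then 324, 410 and 402 in mock and 462, 494 and 450 in DCA plants at 6 d. DCA plants were above mock plants at both times, by log2 1.67 and then by 0.31. The change, -1.35 ± 0.24, had an adjusted p of 0.053.

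AT1G66090 encodes a truncated NLR with a TIR domain and a nucleotide-binding domain. Its mock signals at 48 h were 241, 327 and 192 against 1058, 955 and 910 with DCA. At 6 d mock gave 454, 405 and 397 against 205, 305 and 314 with DCA. DCA plants were thus the higher group at 48 h and the lower group at 6 d, with no overlap at either time. The change was -2.61 ± 0.49, with an adjusted p of 0.0662.

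CaBP22 (AT2G41090) is a calmodulin-like protein of calcium signalling. Mock plants at 48 h read 3804, 3890 and 2713, and DCA plants 14517, 16576 and 15869. By 6 d mock plants read 7768, 8788 and 11340, and DCA plants 7238, 10896 and 12238. The groups were apart at 48 h and overlapped at 6 d, and mock plants had risen by 1.42 (adjusted p = 0.0467). The change of the response, -2.08 ± 0.42, was not called (adjusted p = 0.0823). AT2G26190, which encodes a calmodulin-binding protein with an IQ motif, gave -1.52 (adjusted p = 0.0662), from 1.52 at 48 h to 0.01 at 6 d.

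The remaining genes of this group were likewise not called. AT4G36550, a U-box protein of the ubiquitin ligase class, gave -1.40 (adjusted p = 0.0921). AT4G29780 gave -2.04 (adjusted p = 0.101) and differs from the others in its parts: the mock difference with time was -0.04, whereas DCA plants fell by 2.08 (adjusted p = 0.00323). AT1G66080, which encodes a Hikeshi-like protein of the heat response, gave -1.93 (adjusted p = 0.110). Its groups overlapped at 48 h, and at 6 d DCA plants, with 92.6, 99.9 and 100, lay below mock plants, with 226, 219 and 197. AT5G54860, a member of a membrane transporter family, gave -1.66 and AT2G42950 -1.37, each with an adjusted p of 0.12.

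In the other direction no probe set was called, and the 10 genes named have the lowest unadjusted p among those at least 2-fold higher. ATL63, a RING-type ubiquitin ligase, gave 196, 134 and 90.8 in mock and 50.1, 48.4 and 50.6 in DCA plants at 48 h, then 53.8, 101 and 37.4 in mock and 162, 107 and 76 in DCA plants at 6 d. DCA was below mock at 48 h without overlap, and the groups overlapped at 6 d. Its fitted change was 2.33 ± 0.52 (adjusted p = 0.12), and 1.75 with the DCA plants at 48 h, all below 74.2, set to that level. Of the mock signals at 6 d, 2 also lay below 74.2 and were left as they were in both values.

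AT1G64380, a transcription factor of the AP2/ERF family, gave 503, 181 and 315 in mock and 150, 104 and 114 in DCA plants at 48 h. At 6 d mock plants gave 447, 420 and 442 and DCA plants 796, 519 and 815. The order turned over without overlap at either time, with a change of 2.01 ± 0.48 (adjusted p = 0.122), and DCA plants rose with time by 2.52 (adjusted p = 0.00146). AT5G49170, of which no function is given here, had the largest value of the 10, 3.24 ± 0.78 (adjusted p = 0.124). It was among the 59 called lower at 48 h, at -2.54, and DCA plants rose by 2.70 with time (adjusted p = 0.0257).

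SPT encodes SPATULA, a bHLH transcription factor that restrains leaf growth. Its mock signals, 249, 163 and 168 at 48 h, lay above the DCA signals of 137, 141 and 114, and its mock signals at 6 d, 82.3, 82.8 and 104, lay below the DCA signals of 225, 126 and 151. The change was 1.41 ± 0.35 (adjusted p = 0.163). AT3G47510 and AT5G03230 crossed over in the same way, with changes of 1.45 (adjusted p = 0.197) and 2.80 (adjusted p = 0.227). AT2G26110, AT5G26960, a Kelch-repeat F-box protein, AT3G20680 and AT1G76020, a thioredoxin-fold protein, lay below mock at 48 h and overlapped with it at 6 d, with changes between 1.04 and 2.00.

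Over all tested probe sets, 152 had every DCA array above every mock array at 48 h and below every mock array at 6 d (1.11%), and 160 had the reverse (1.17%). By comparison 149 had DCA above mock at both times (1.09%) and 82 had it below at both times (0.601%).

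The change can be split into how mock plants and how DCA plants moved between 48 h and 6 d. Between these times limma called 29 probe sets in mock plants (0.212%), 25 higher (0.183%) and 4 lower (0.0293%) at 6 d. It called 129 in DCA plants (0.945%), 64 higher (0.469%) and 65 lower (0.476%). Among the 100 probe sets with the lowest p, 77 were lower and 23 higher. The count of 29 in mock plants was 4 without replicate 1 of mock at 48 h and 0 without replicate 3 of that group or without replicate 1 or 2 of mock at 6 d. The count of 129 in DCA plants was 247 without replicate 1 of DCA at 6 d and between 8 and 25 without any other DCA array.

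**Figure D3:**
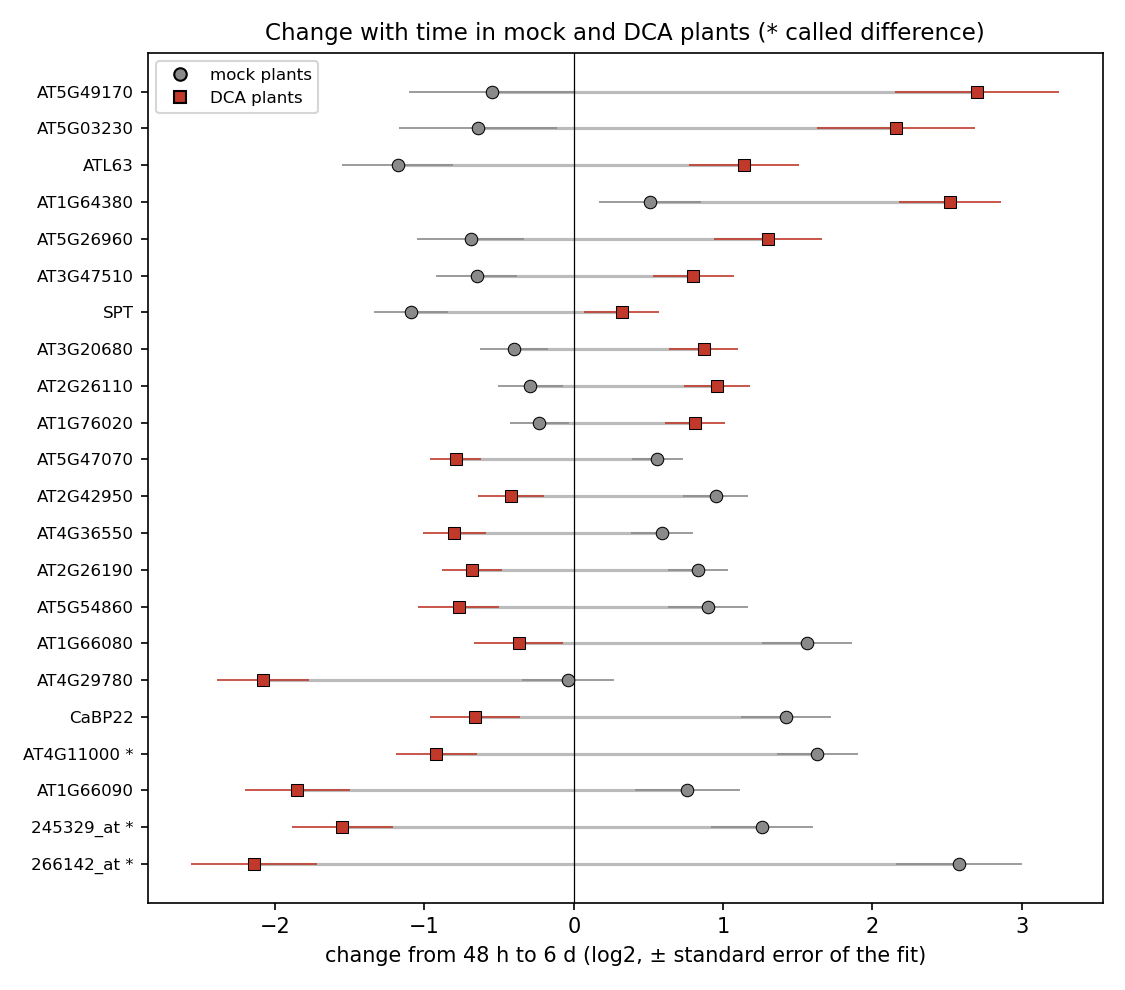
Change from 48 h to 6 d (log2, horizontal axis, bars ± SE of the fit) in mock plants (grey circles) and DCA plants (red squares) for the 3 called probe sets, marked with an asterisk, and the 19 genes named next to them. The gap between the symbols of a row is the change of the DCA response. Mock lies to the right of 0 and DCA to the left in every lower gene except AT4G29780, whose mock change is -0.04; the genes were chosen by their change, which favours such opposite moves.

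The 270 probe sets that DCA raised at 48 h describe the early response at the later time. They were chosen on arrays that also enter the change with time, so that change is a description only: it was negative in all 270, with a median of -1.23. Their values at 6 d come from other arrays. The median DCA response was 1.47 at 48 h and 0.21 at 6 d, where 204 of the 270 were above 0 (75.6%, against 45% of all tested probe sets). Of them, 17 were at least 2-fold higher with DCA at 6 d (1.31% of all tested probe sets were), and 68 had all DCA arrays above all mock arrays (7.32% of all tested probe sets did). The medians per DCA array at 6 d were 0.24, 0.26 and 0.16 above the mock mean, where all tested probe sets had -0.13, 0.03 and 0. At 2-fold or more above the mock mean were 38 of the 270 in replicate 1 (14.1%, against 7.9% of all tested probe sets), 10 in replicate 2 (3.7%, against 0.542%) and 9 in replicate 3 (3.33%, against 0.835%). The 59 probe sets lowered at 48 h had a median of -0.98 then and 0.10 at 6 d.

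A set chosen on arrays outside the 12 allows the same reading. In npr1-3, 44 probe sets were called between DCA and mock at 48 h (0.322%), 43 of them higher (0.315%). In Col-0 these 43 had a median DCA response of 1.5 at 48 h and 0.24 at 6 d, and the change was negative in 43 of 43 with a median of -1.21, against 54.6% negative among all tested probe sets. At 6 d 33 of the 43 were above 0. Without replicate 1 of DCA at 6 d the median change was -1.06, with 42 negative and 29 above 0 at 6 d.

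Genes with the largest called rises at 48 h were described at both times, with no test of the choice. AT3G25610, a phospholipid-transporting P-type ATPase, gave 22.7, 18.2 and 21.3 in mock and 337, 212 and 306 in DCA plants at 48 h. Mock plants at 6 d gave 48.0, 18.4 and 65.5 and DCA plants 192, 77.2 and 73.9. All mock signals lay below the filter level of 74.2 at both times. Against that level DCA plants were at least 3.77-fold higher at 48 h and at least 1.39-fold higher at 6 d, where replicate 3 of DCA was itself below it. DCA was above mock without overlap at 6 d, and the fitted change of -2.35 ± 0.86 was not called (adjusted p = 0.352), with -1.44 at that level. Of the 5 genes named by this rule it alone kept the groups apart at 6 d.

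AT5G52760, which encodes a protein with a heavy-metal-binding domain, had a change of -2.99 ± 0.90 (adjusted p = 0.271), from 3.32 to 0.32. AT5G58120, a TIR-NLR, gave 22.3, 55.9 and 36.6 in mock and 416, 389 and 410 in DCA plants at 48 h. By 6 d mock plants gave 334, 343 and 304 and DCA plants 244, 451 and 294. The groups overlapped at 6 d, with mock signals near those of DCA plants: the mock difference with time was 3.19 (adjusted p = 0.0772) and that of DCA plants -0.34. Its mock signals at 48 h were all below 74.2, against which DCA plants were at least 5.45-fold higher. AT3G04210, a truncated TIR-NLR, had values of 3.06 at 48 h and -0.20 at 6 d, and its mock signals at 48 h ran from 145 in replicate 1 to 959 in replicate 2.

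Among the largest called falls at 48 h, AT1G62510, of the lipid-transfer and seed-storage protein family, gave 10864, 1560 and 4325 in mock and 367, 390 and 601 in DCA plants at 48 h. At 6 d mock plants gave 6731, 6328 and 4538 and DCA plants 4526, 6153 and 6774. The groups were apart at 48 h and overlapped at 6 d, with log2 values of -3.24 and -0.01, and DCA plants rose with time by 3.70 (adjusted p = 0.0235). The change of 3.23 ± 1.05 was not called (adjusted p = 0.3). AT1G23050 had a fitted -2.24 at 48 h, where all DCA signals were below 74.2 and thus at least 2.17-fold lower, and 0.23 at 6 d.

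Among the members of 28 gene lists, 0 were called in the change with time, so each list is described by counts and its median beside those of all tested probe sets. The 3 tested genes of SA response and systemic acquired resistance were all negative, with a median of -1.81, from 2.19 at 48 h to 0.11 at 6 d. They are CaBP22, described above and counted again among the calcium-binding proteins, AT5G52810 and GRX480, and 0 of the 3 were called. Each median is the value of 1 gene: -1.81 is that of GRX480, and 2.19 and 0.11 are those of CaBP22. AT5G52810 encodes SARD4, an enzyme in the synthesis of pipecolic acid, a compound that takes part in systemic resistance. It gave 148, 144 and 128 in mock and 415, 351 and 303 in DCA plants at 48 h, then 314, 201 and 332 in mock and 167, 227 and 257 in DCA plants at 6 d. The groups overlapped at 6 d, and the change was -1.71 ± 0.59 (adjusted p = 0.339).

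GRX480 is a glutaredoxin that SA induces and that binds TGA transcription factors. It gave 268, 539 and 343 in mock and 2058, 2296 and 2089 in DCA plants at 48 h. Mock plants at 6 d gave 353, 319 and 433, and DCA plants 2342, 312 and 308. Only replicate 1 of DCA at 6 d was still at the level of the 48 h plants, and the other two lay below every mock signal of that time. The change was -1.81 ± 0.94 (adjusted p = 0.431), and -2.78 without that array. SAG101, a partner of the immune regulator EDS1, ran from 1.04 at 48 h to 0.44 at 6 d, where DCA plants gave 288, 151 and 189. Its change was -0.59 (adjusted p = 0.474), and between -0.85 and -0.34 without single arrays.

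The same array was high for other stress-responsive genes. AT3G01830, a calcium-binding EF-hand protein, gave 797, 97.9 and 90.7 in DCA plants at 6 d against 124, 105 and 134 in mock plants, with a change of -2.62, or -3.64 without that array. STZ, a zinc-finger repressor of stress responses, gave 2572, 620 and 841 against 899, 936 and 1548, with a change of -1.05, or -1.66 without that array and -0.64 without replicate 2 of that group. CML38, a calmodulin-like protein, gave 2859, 560 and 507 against 940, 1192 and 677, with a change of -1.63. That change was -2.44 without replicate 1 of DCA at 6 d and -0.67 without replicate 1 of mock at 48 h. In each of these genes replicate 1 of DCA at 6 d was the highest of the 6 arrays of that time. What set that sample apart was not tested. Replicate 1 of INA at 6 d gave 2955 for GRX480, against 909 and 897 in replicates 2 and 3.

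**Figure D4:**
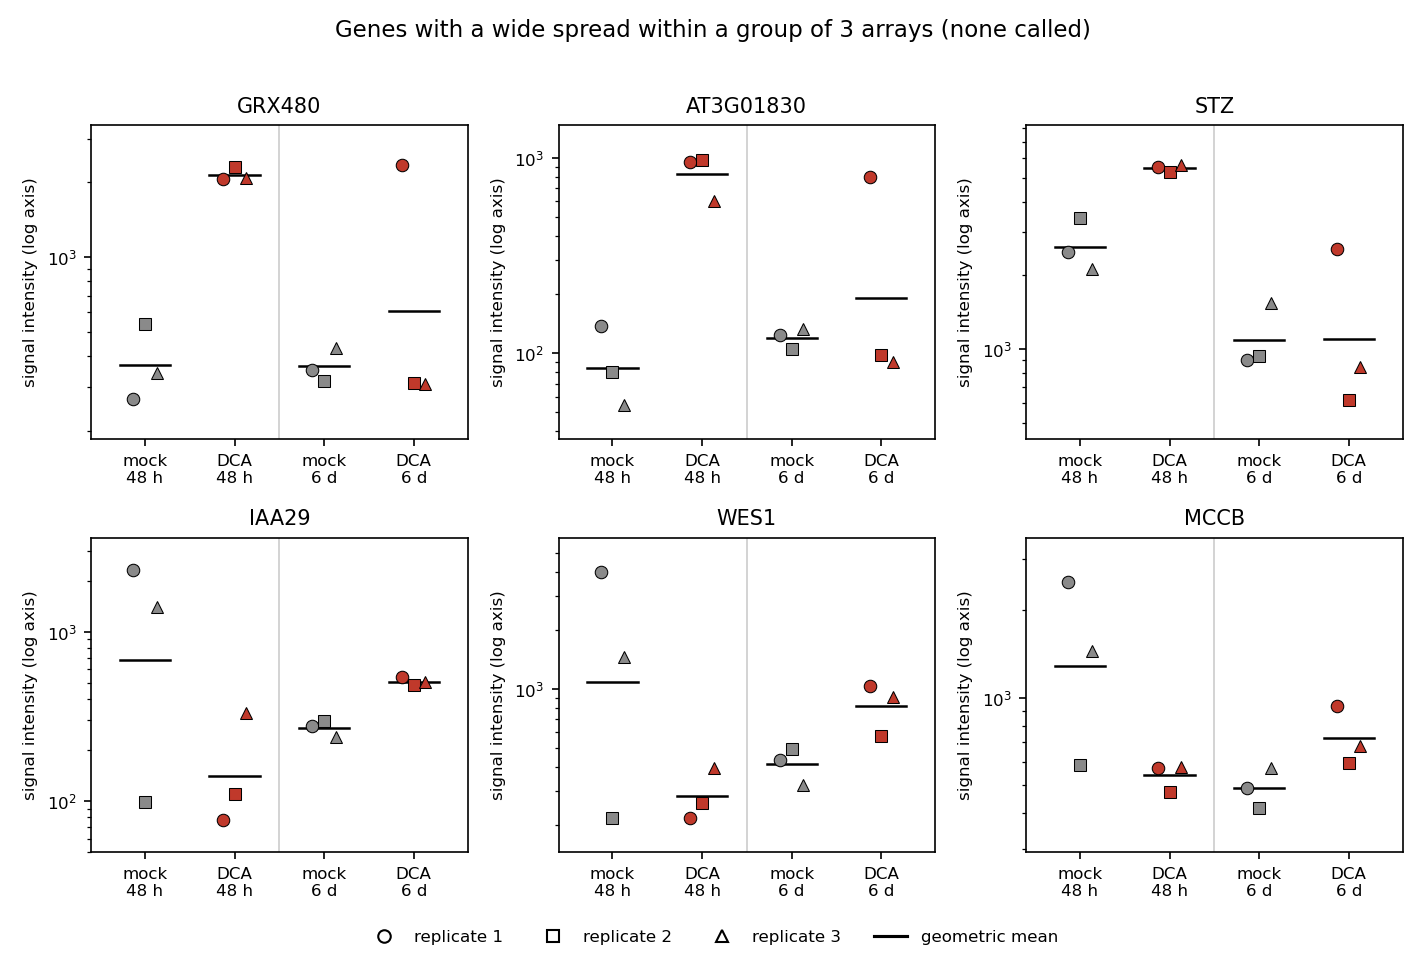
Signal intensity (logarithmic vertical axes that do not start at 0) in each of the 12 arrays for 6 genes, none called; symbols mark the replicate number, grey is mock, red is DCA, and bars are geometric means. In the upper row replicate 1 of DCA at 6 d lies above the other 2; in the lower row the mock plants at 48 h spread widely, from 98.2 to 2324 for IAA29.

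NLR receptor loci were the largest defence list, with 39 of 122 annotated members tested. The mean signal used by the filter includes treated arrays, so loci raised by DCA could pass more easily. Loci left out are not described, and the part of this choice in the values below was not tested. The median change of the 39 was -0.67, and 33 of 39 were negative. With the filter at the 60th percentile 11 members remained, with a median of -1.29 and 10 negative. Of the 39, 10 had an unadjusted p under 0.05 on the lower side (25.6%, against 6.13% of all tested probe sets). On the higher side 0 did, and 0 were called. The median signal of the 39 was 102, 123 and 111 in mock plants and 165, 160 and 158 in DCA plants at 48 h, with no overlap. At 6 d it was 155, 132 and 138 in mock and 135, 144 and 158 in DCA plants, which overlapped. The median mock change with time was 0.51 and the median DCA change -0.10. At 48 h 10 of the 39 were called higher with DCA, as were 1.98% of all tested probe sets.

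AT1G72940, a truncated TIR-NLR, gave 584, 672 and 485 in mock and 1314, 1344 and 1327 in DCA plants at 48 h. By 6 d mock plants gave 1448, 1569 and 1266 and DCA plants 840, 1260 and 1054. DCA was above at 48 h and below at 6 d, with a change of -1.66 ± 0.39 (adjusted p = 0.122). AT1G69550, AT1G63880 and AT5G36930, TIR-NLR genes called higher at 48 h, had changes of -1.49, -1.29 and -1.07, with adjusted p between 0.343 and 0.398.

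Of 6 receptor-like and cytoplasmic kinases, 5 were negative, with a median of -0.84, from 1.28 at 48 h to 0.17 at 6 d. AT1G66880 was at 2.46 at 48 h and 1.51 at 6 d, a change of -0.95 that lay between -1.66 and -0.46 without single arrays. AT1G51805, a leucine-rich-repeat receptor kinase, gave 2216, 1825 and 1699 in DCA plants at 48 h against mock signals of 163, 1439 and 939. The groups did not overlap at 48 h, and the change was -1.60 ± 1.18 (adjusted p = 0.553), or -0.65 without replicate 1 of mock at 48 h. Among 7 calcium-binding proteins, a list added after values were seen, 5 were negative and the median was -0.45. It was -0.80 without replicate 1 and -0.25 without replicate 3 of DCA at 6 d, and -0.70 without replicate 2 of mock at 48 h.

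Other defence lists were small. Of 6 jasmonate and ethylene genes 5 were negative, with a median of -0.93 and the lowest adjusted p at 0.497. The median signal of the 6 in DCA plants at 6 d was 2400 in replicate 1 and 254 and 250 in the others, against 564, 541 and 678 in mock plants. The median change was -1.36 without that replicate 1, -0.55 without replicate 2 of the same group and -0.59 without replicate 2 of mock at 48 h. The defensin PDF1.2 gave -2.18 (adjusted p = 0.545), with -3.53 and -1.42 without replicates 1 and 3 of DCA at 6 d. OPCL1, an enzyme of jasmonate synthesis, gave -1.25 (adjusted p = 0.529), with mock signals of 443, 4743 and 2730 at 48 h and a change of -0.25 without the first of them and -1.96 without the second. AT2G04400, an enzyme of tryptophan synthesis and thus of the path to indole defence compounds, was called higher at 48 h at 1.0 and stood at -0.30 at 6 d, a change of -1.30 ± 0.36 (adjusted p = 0.233). Of 5 WRKY transcription factors 4 were negative, with a median of -0.25. Without replicate 1 of DCA at 6 d it was -0.01 with 3 negative, without replicate 3 of that group -0.38, and without replicate 1 of mock at 48 h -0.14. Of 3 small heat shock genes 2 were negative, with a median of -1.17 and a highest value of 0.22. The lowest of them, AT2G29500, gave 57.3, 175 and 189 in DCA and 367, 441 and 250 in mock plants at 6 d, a change of -2.07 ± 0.66 (adjusted p = 0.297).

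Of the detoxification genes, the 7 glutathione transferases had a median change of -0.46 with 6 negative (85.7%, against 54.6% of all tested probe sets). The 11 cytochrome P450s had a median of -0.26, or -0.10 without replicate 1 of DCA at 6 d. The median of the 23 UDP-glycosyltransferases was 0.05, and between -0.12 and 0.12 without single arrays. CYP71B23, a cytochrome P450, had similar DCA responses at both times. It gave 250, 59.6 and 94.9 in mock and 298, 310 and 252 in DCA plants at 48 h, then 85.0, 110 and 97.1 in mock and 372, 245 and 219 in DCA plants at 6 d. DCA was above mock without overlap at both times, at 1.35 and 1.49, neither of them called, and the change was 0.14 with a 95% interval from -1.03 to 1.31. Without replicate 1 of mock at 48 h it was -0.44, without replicate 2 of that group 0.60, and without replicate 1 of DCA at 6 d -0.09. UGT72E1, a glucosyltransferase of lignin precursors, had a change of 2.05 ± 0.85 (adjusted p = 0.373), with mock signals of 3067, 527 and 1238 at 48 h, and of 1.41 without the first of them.

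**Figure D5:**
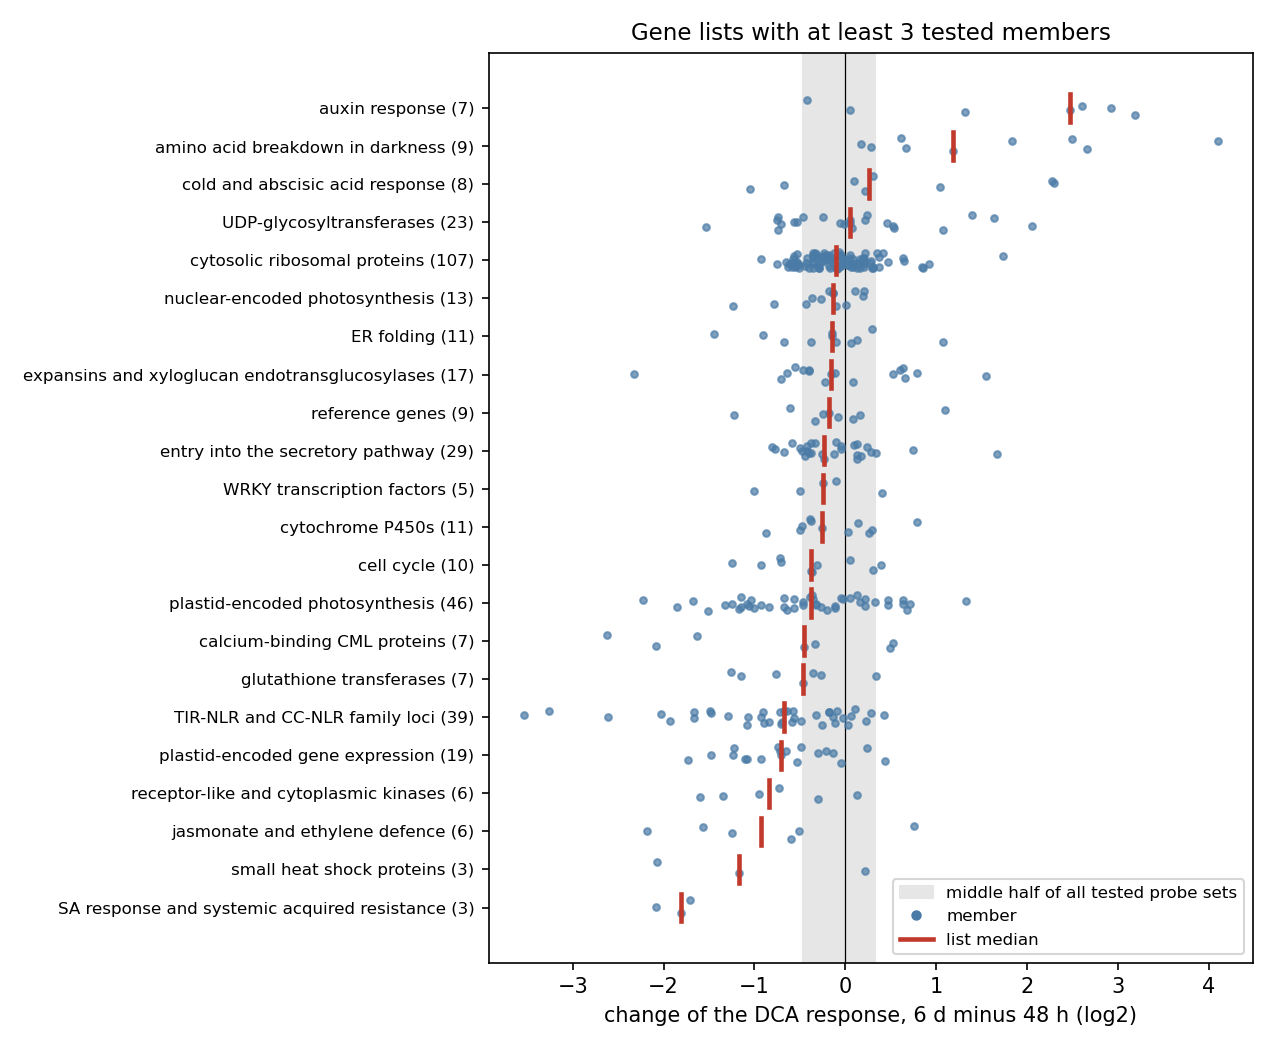
Change of the DCA response (log2, horizontal axis) for each tested member of the gene lists with at least 3 tested members, with the number in brackets; red bars are list medians and the grey band holds the middle of all tested probe sets, from the 25th to the 75th percentile. SA response, small heat shock, jasmonate and kinase genes have the lowest medians, and auxin response and amino acid breakdown the highest.

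Genes of the plastid genome had medians below 0. Of 19 genes for plastid gene expression (ribosomal proteins, RNA polymerase subunits and others) 17 were negative (89.5%, against 54.6% of all tested probe sets). Their median was -0.71, from 0.59 at 48 h to -0.05 at 6 d. The median signal of the 19 at 48 h was 1470, 1170 and 2100 in mock and 2350, 2620 and 1410 in DCA plants. The groups thus overlapped at 48 h, and they did so at 6 d. The polymerase subunit rpoC2 gave -1.73 (adjusted p = 0.35). Of 46 plastid genes of photosynthesis 33 were negative (71.7%), with a median of -0.38, or -0.24 with 28 negative without replicate 3 of DCA at 6 d. Their median signals per array also overlapped between mock and DCA plants at both times. Nuclear genes of photosynthesis had a median of -0.13 over 13, and 107 cytosolic ribosomal proteins a median of -0.10, beside the -0.07 of all tested probe sets. Medians were -0.15 over 11 genes of ER folding, -0.23 over 29 of entry into the secretory pathway, -0.16 over 17 expansins and xyloglucan endotransglucosylases, and -0.18 over 9 reference genes. Without single arrays the last of these lay between -0.26 and 0.04, the highest without replicate 1 of DCA at 6 d. The expansin list lay between -0.46 and 0.03, the lowest without replicate 2 and the highest without replicate 1 of mock at 48 h. Among the others of these small medians, those of ER folding and nuclear photosynthesis also moved by over 1.5 times, within -0.21 and -0.08.

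The highest medians belonged to auxin response (2.47, with 6 of 7 positive) and to amino acid breakdown in darkness (1.19, with 9 of 9 positive), and 0 of these 16 were called. IAA29, an auxin-induced repressor that also responds to shade, gave 2324, 98.2 and 1410 in mock plants at 48 h and 76.9, 109 and 332 in DCA plants. At 6 d mock plants gave 277, 296 and 240 and DCA plants 539, 483 and 503. DCA was above mock without overlap at 6 d, and at 48 h the groups overlapped, with replicate 2 of mock among the DCA plants. The change was 3.19 ± 1.34 (adjusted p = 0.373), and 2.31 without replicate 1 of mock at 48 h. WES1, which conjugates auxin to amino acids, had mock signals of 3965, 219 and 1459 at 48 h and a change of 2.93 ± 1.42 (adjusted p = 0.408).

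MCCA and MCCB, the subunits of the carboxylase that breaks down leucine, gave 2.50 ± 1.41 and 1.83 ± 1.06, and ALDH6B2, of valine breakdown, 1.19 ± 1.03, or 0.80 without replicate 1 of mock at 48 h. MCCB gave 2499, 587 and 1452 in mock and 572, 473 and 576 in DCA plants at 48 h, and 486, 416 and 572 in mock and 937, 595 and 683 in DCA plants at 6 d. The median of the breakdown list per array at 48 h was 2500, 248 and 966 in mock against 278, 302 and 326 in DCA plants, and at 6 d 345, 354 and 334 against 547, 362 and 426. The median change of that list was 0.80 without replicate 1 of mock at 48 h and 1.63 without replicate 2. For the auxin list these values were 1.62 and 3.46, and 1.48 without replicate 3 of mock at 6 d. The part of the harvest conditions in this spread was not tested.

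Cold and abscisic acid genes had a median of 0.26 over 8, with 2 negative. It was 0 with 4 negative without replicate 1 of DCA at 6 d, 0.46 without replicate 3 of that group, and 0.69 and 0.07 without replicates 1 and 2 of mock at 48 h. COR47, a dehydrin, gave 9159, 8713 and 8491 in mock and 6893, 6691 and 6992 in DCA plants at 48 h, then 3933, 3919 and 5589 in mock and 13557, 4375 and 6059 in DCA plants at 6 d, with replicate 1 of DCA at 6 d highest. The change was 1.04 ± 0.70 (adjusted p = 0.515), and 0.58 without that array. Cell cycle genes had a median of -0.38 over 10, with 7 negative, and of -0.22 without replicate 1 of DCA at 6 d and -0.61 without replicate 2 of mock at 48 h. AUR1, an Aurora kinase of dividing cells, gave 159, 301 and 281 in DCA plants at 6 d, below the mock signals of 406, 384 and 342, and a change of -1.25 ± 0.51 (adjusted p = 0.372). In aerial tissue taken whole, fewer cells of a type and less RNA per cell cannot be told apart.

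INA-treated plants allowed the change in DCA plants from 48 h to 6 d to be set against that in plants given another elicitor at the same dose, without the mock arrays. Limma called 0 of 13648 probe sets in that comparison (0%), with 323 at an unadjusted p under 0.05 and a lowest adjusted p of 0.999. That fit took no account of replicate numbers, though same-numbered INA and DCA arrays deviated together at 6 d (0.75, 0.57 and 0.46). With the number as a block within each time limma also called 0, with a lowest adjusted p of 0.816. A difference was therefore not shown. Its absence was not shown either, with a median 95% interval of 0.83 to either side in the fit without the block. The 3 called probe sets had values of -1.35 (266142_at), -1.22 (AT4G11000) and -1.24 (245329_at) there, none of them called.

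The INA signals of these probe sets stood as follows. AT4G11000 gave 161, 242 and 228 at 48 h and 178, 315 and 302 at 6 d in INA plants, where DCA plants gave 239, 217 and 208 and then 132, 101 and 120. For 245329_at INA plants gave 2256, 4670 and 3452 and then 2111, 2810 and 3212. For 266142_at they gave 486, 975 and 658 and then 503, 289 and 423. The change of the INA response against the same mock plants was -1.33, -1.57 and -3.36 for AT4G11000, 245329_at and 266142_at, and 0 probe sets were called (0%; 346 at an unadjusted p under 0.05). Both changes share the mock arrays, so their likeness is no result of its own.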

How the data were processed

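The deposited values are linear signal intensities on Affymetrix ATH1 arrays that the authors computed in GCOS (version not named), per the submitters' processing notes. Leaving out 2% of values at either end, their mean was 500.1 on every array, so the arrays were not scaled again. Detection calls were not used. Values were analysed as log2 of the signal, with a floor of 1. Of 22746 non-control probe sets, the 13648 with a mean log2 signal at or above the 40th percentile (74.2) were tested. Using limma 3.58.1 (R 4.3.3), the 24 arrays entered 1 means model of 8 groups, moderated by eBayes with an intensity trend and with 16 residual degrees of freedom. The change with time is a contrast of 4 groups; 8 contrasts were computed, each two-sided and adjusted by Benjamini and Hochberg over all 13648 probe sets. Called means an adjusted p under 0.05. Errors are standard errors of the fit, with the residual variance pooled over all 8 groups, and 3 arrays per group limit the precision. No 2 arrays were identical. The fit was also run on simulated data with independent noise of equal spread in all groups. That simulation held no deviating arrays, so it cannot show how the fit behaves with the uneven arrays described above. Plots were made in Python 3.11.15 with matplotlib 3.10.9.

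Gene names come from the platform annotation alone: it pairs 13513 probe sets with 1 gene and 503 with several, and has no entry for 8730. Of those with 1 gene, 13436 matched RefSeq records of assembly TAIR10.1, used for symbols only. Coordinates are left out, since the annotation names no build. No entry exists in it for ICS1, LURP1, WRKY70, NPR1, PR1, PR2 or PR5, which therefore get no values.

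Named genes are the called ones with 1 gene whose highest mean among the 4 groups exceeded 132, the median signal, filled up to 10 in each direction by the lowest unadjusted p among changes of at least 1 (log2). To these come the 5 largest called rises and 3 largest called falls at 48 h, up to 3 members of each gene list, of which the text gives those that bear on a group, and CaBP22. The called probe sets without a gene, AT1G69550, AT1G63880, AT5G36930, AT1G66880, PDF1.2 and rpoC2 were added after their values were seen. The comparison, the lists and these genes were chosen with earlier results of these data known. Alternatives were the arrays entering the fit, the filter, quantile normalization, the floor, the trend, a robust fit, the replicate number as a block, and leaving out arrays.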

Additional observations from a re-analysis of the deposited data

Results flagged for a closer look

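In 3 probe sets the DCA effect differed between 48 h and 6 d by the test of that difference: 266142_at (-4.72), AT4G11000 (-2.55) and 245329_at (-2.81). In 266142_at the order of the groups also turned over, from DCA above mock in all arrays to DCA below mock in all arrays.

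In 8 further named genes the groups lay apart in opposite order at both times, and the test of the difference did not call them. DCA went from above to below mock in AT1G66090 (-2.61), AT2G42950 (-1.37) and AT1G72940 (-1.66). It went from below to above in AT1G64380 (2.01), SPT (1.41), AT3G47510 (1.45), AT5G03230 (2.80) and MCCB (1.83). Over all tested probe sets, 152 went from above to below in this way (1.11%) and 160 from below to above (1.17%). Several of the 8 were named for a low p of this same change, which favours such an order. Groups of 3 arrays are too small for an outlier test, so single arrays were not tested in that way.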

How the results depend on the processing

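The change of the DCA response with time gave 3 calls, and 3, 4, 3, 2 and 3 with quantile normalization, no filter, a filter at the 60th percentile, no intensity trend and a robust fit. It gave 36 (1 higher, 35 lower) when only the 12 arrays were fitted, 11 with a floor of 32, 13 with all replicate 1 arrays left out, of which 1 was among the 3, and 1 without replicate 1 of DCA at 6 d and of mock at 48 h, an alternative chosen after seeing the data. Leaving out single arrays gave 1 to 39. Same-numbered mock and DCA arrays correlated, in their deviations from group means, at -0.1, 0.19 and 0.13 at 48 h and at -0.02, 0.08 and 0.09 at 6 d, and not every array correlated best with its own number, so the numbers were not taken as pairs for this change. Same-numbered INA and DCA arrays did deviate together at 6 d, at 0.75, 0.57 and 0.46, each highest with its own number, and not at 48 h, at -0.13, 0.15 and 0.15. With the replicate number as a block the count was 66 (22 higher, 44 lower), and 147 (66 higher, 81 lower) with the block set within each time. 266142_at was called under every alternative run, with values from -5.46 to -4.29.

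The other counts moved as follows. The DCA response at 48 h, 329 calls, gave 641 and 945 with these blocks and 167 without the 2 arrays, and 107 to 715 without single arrays. The DCA response at 6 d, 0 calls, gave 2 without the filter, 1 with all replicate 1 arrays out, 1 without the 2 arrays, and 0 to 1 without single arrays. The change in mock plants, 29 calls, gave 401 with only its own arrays, 19 with quantile normalization, 741 and 878 with the blocks, 351 with all replicate 1 arrays out, and 0 to 41 without single arrays. The change in DCA plants, 129 calls, gave 666, 380, 425 and 700 for its own arrays, the blocks and all replicate 1 arrays out, 333 without the 2 arrays, and 8 to 247 without single arrays. The comparison with INA gave 0 under every alternative run. The cause of these shifts was not tested, beyond fewer arrays in a fit.

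Of 1092 values for 48 named probe sets, 1004 kept direction and side of the threshold, 64 gained a call and 20 lost it. Of these 48, CYP71B23 alone changed sign. Its change was -0.73 with all replicate 1 arrays out and -0.66 without the 2 arrays. It was -0.09 without replicate 1 of DCA at 6 d and -0.44 without replicate 1 of mock at 48 h. Without single arrays it ran from -0.44 to 0.60. Some list members that the naming rule chose and the text does not describe also changed sign without 1 array. Signals below the filter level of 74.2, such as AT4G11000 in mock plants at 48 h, may be limited by background, which was not measured here.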
